A study of Rattus norvegicus with 8 samples.

Results

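A set of 137 genes separated all 4 libraries of the spontaneously hypertensive rat (SHR) from all 4 libraries of the Wistar-Kyoto rat (WKY) in RNA sequencing of the hippocampus. The set was drawn from 32623 annotated genes, of which 22544 had a count in at least 1 library. A member had a mean CPM (its count scaled to a library total of 1000000) of at least 0.5 over the 8 libraries. Its CPM ranges in the strains did not overlap, and the strain means of log2(CPM + 0.05) differed by at least 0.8, which is 1.74-fold. In 44 members SHR was the higher strain and in 93 the lower one. The members were chosen on these same values, so their strain differences are given as a description. Calls of tests fitted on all genes are counted below as a description too, because they rest on the same contrast.

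Both groups were hippocampal tissue of rats aged 32 weeks, taken under pentobarbital anaesthesia. The strain, SHR or Wistar-Kyoto, is the only difference between the groups that the labels give, and they name no transgene and no drug treatment. The labels do not state sex, or whether each library came from a separate animal. The libraries are called SHR1 to SHR4 and WKY1 to WKY4 after their titles. They held 45048841 to 49560687 counts in SHR and 53045139 to 53699673 in WKY. These totals did not overlap, and their part in the strain differences was not tested.

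SHR is an inbred rat that was selected for raised blood pressure and becomes hypertensive without treatment as it matures. WKY comes from the same parent stock and is its usual control with normal blood pressure. The hippocampus serves memory and spatial learning, and SHR is also used as a model of vascular brain injury and of altered attention and activity. Inbred strains differ both in their DNA sequence and in their physiology, and a comparison of 1 hypertensive strain with 1 control strain cannot tell these apart. In bulk tissue, fewer cells of a type and less RNA per cell also cannot be told apart.

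The genes were identified only by Ensembl gene ID. No member could be paired with a gene symbol (0 of 137), so the members are described by their values and not by function, and no promoter sequence is shown. For the same reason the hippocampal identity of the libraries was not checked against marker genes. The members with the largest differences, 2 in each direction, are given by ID and the others by their values.

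WKY4 stood apart from the other WKY libraries at many members, so the results are given with and without it. With WKY4 left out, the same rule picked 433 genes, 184 higher and 249 lower in SHR. They included 129 of the 137 members. Those 129 were 94.2% of the 8-library set and 29.8% of the 7-library set. Of the 8 members lost, 6 had a difference under 0.8 without WKY4 and 2 a mean under 0.5 CPM. At 210 of the 304 genes gained, WKY4 lay inside the SHR range, at a further 58 it lay beyond SHR, and at 36 it lay on the WKY side. These places follow largely from the rule, since a gene is gained mostly where WKY4 had kept the ranges from being separate.

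Of 15531 genes with a mean of at least 0.5 CPM, 1041 (6.70%) had strain ranges that did not overlap, 487 higher in SHR (3.14%) and 554 lower (3.57%). The 137 members were 0.882% of the 15531. The higher members were 0.283% and the lower members 0.599%. A further 367 genes differed by at least 0.8 but had overlapping ranges, 147 of them higher and 220 lower in SHR. Among genes with separate ranges the directions were thus nearly balanced, while the members were mostly lower in SHR. The 367 genes with overlapping ranges also leaned to the lower side. The share of genes higher in SHR was 32.1% in the set and 42.5% without WKY4. It ran from 27% to 43.1% over the alternative settings, so its size depends on the cutoffs and libraries.

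**Figure D1:**
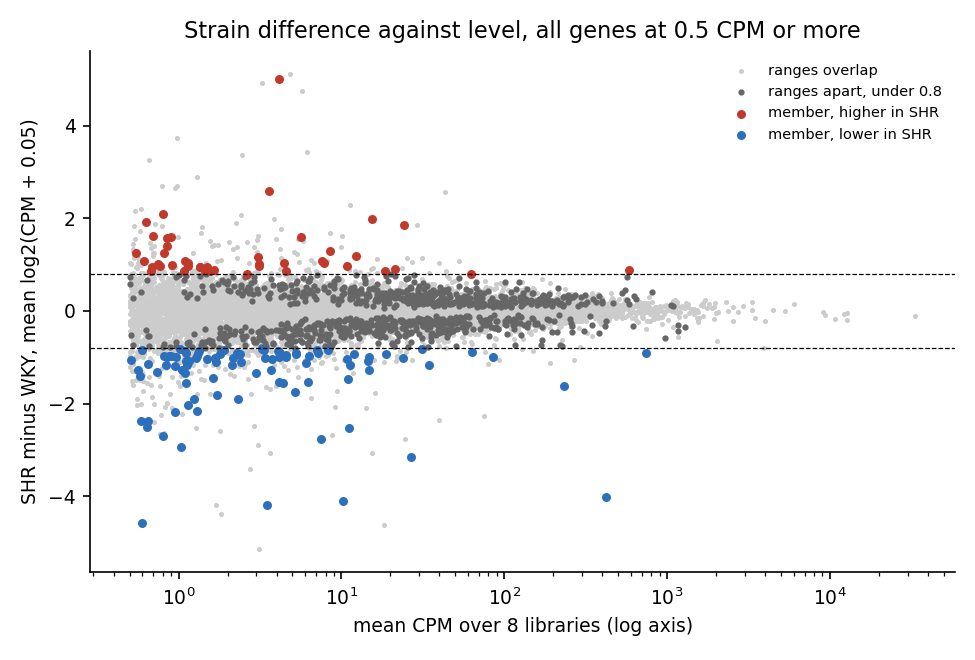
Each point is a gene with a mean of at least 0.5 CPM; the horizontal axis is its mean CPM over 8 libraries on a log scale and the vertical axis is the SHR minus WKY difference of mean log2(CPM + 0.05). Red and blue points are the 44 members higher and the 93 lower in SHR, dark grey points have separate ranges but a difference under 0.8 (dashed lines), and pale grey points have overlapping ranges, some of them with differences as large as those of the members.

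The typical member differed by about 2-fold. The median absolute difference was 1.04 on the log2 scale (2.06-fold), against 0.14 over the 15531 genes. It was 1.03 in the 44 higher members and 1.08 in the 93 lower members. A difference of at least 1 was seen in 81 members, 24 higher and 57 lower in SHR, and 56 members lay between 0.8 and 1. Differences of at least 2 were seen in 3 higher and 15 lower members.

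The values just inside and just outside the rule were close. The smallest differences inside it were 0.80 and 0.81 among the higher members and -0.82 and -0.83 among the lower members. The nearest genes left outside, also with separate ranges, differed by 0.796 and 0.789 and by -0.797 and -0.795. For the mean level, the lowest members had 0.506 and 0.549 CPM, and the next genes outside had 0.485 and 0.481 CPM.

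The typical member had a lower level than the typical gene. The median of the mean CPM was 2.15, against 18.9 over the 15531 genes. A mean under 1 CPM was found in 33 members, 1 to 10 CPM in 77 and at least 10 CPM in 27. Over the 15531 genes these classes held 998, 4646 and 9887 genes. All 8 libraries had at least 10 counts in 122 members, and in 15272 of the 15531 genes. A count of 0 occurred in at least 1 library in 6 members and in 107 of the 15531 genes. In 1 member there was no count in any SHR library.

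The largest difference among the higher members was in ENSRNOG00000019050. It was at 5.77, 4.62, 9.75 and 8.36 CPM in SHR1 to SHR4. In WKY1 to WKY4 it was at 0, 0.132, 0 and 4.58 CPM. The SHR libraries were all high, WKY1 to WKY3 were at or near 0, and WKY4 lay just under the lowest SHR library. The difference of strain means of log2(CPM + 0.05) was 5.01 with WKY4 and 6.48 without it. Both sizes depend on the added 0.05, because WKY1 and WKY3 had no count. With 0.5 added instead, the difference over 8 libraries was 2.96. The gene's mean was 7.12 ± 2.34 CPM over the SHR libraries, against 1.18 ± 2.27 CPM over the WKY libraries (SD, n = 4 for both). That is a 6.05-fold higher mean in SHR, and the WKY spread came from WKY4.

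ENSRNOG00000049070 had the next largest difference, with a wide gap between the strains. It was at 7.70, 6.07, 4.98 and 5.98 CPM in SHR1 to SHR4. WKY1 to WKY4 were at 1.02, 1.43, 0.636 and 0.950 CPM. The lowest SHR library was 3.48 times the highest WKY library, and WKY4 fell between the lowest and the highest WKY library. The difference was 2.59 on the log2 scale, and 2.58 without WKY4.

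Among the lower members, ENSRNOG00000007092 had the largest difference. It had no count in any of the 4 SHR libraries. In WKY1 to WKY4 it was at 1.66, 0.753, 1.22 and 1.14 CPM, which were 88, 40, 65 and 61 counts. The mean of WKY, 1.19 ± 0.372 CPM (SD, n = 4), was at least 18.65-fold higher than the level that 3 counts per SHR library would give (0.0638 CPM). That floor treats each count as a single read, and the low counts of these files may not be, so the bound is approximate. The difference of strain means of log2(CPM + 0.05), -4.58, is set by the added 0.05, and it was -1.73 with 0.5 added instead.

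ENSRNOG00000018257 was next among the lower members. It was at 0.400, 0.263, 0.404 and 0.188 CPM in SHR1 to SHR4. In WKY1 to WKY4 it was at 8.99, 3.82, 7.56 and 6.26 CPM. The mean was 21.2-fold higher in WKY, at 6.66 ± 2.20 CPM against 0.313 ± 0.106 CPM (SD, n = 4 each). Its lowest WKY library was 9.47 times its highest SHR library, the widest such gap of the 136 members with a count in both strains. The difference was -4.19 with WKY4 and -4.20 without it.

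**Figure D2:**
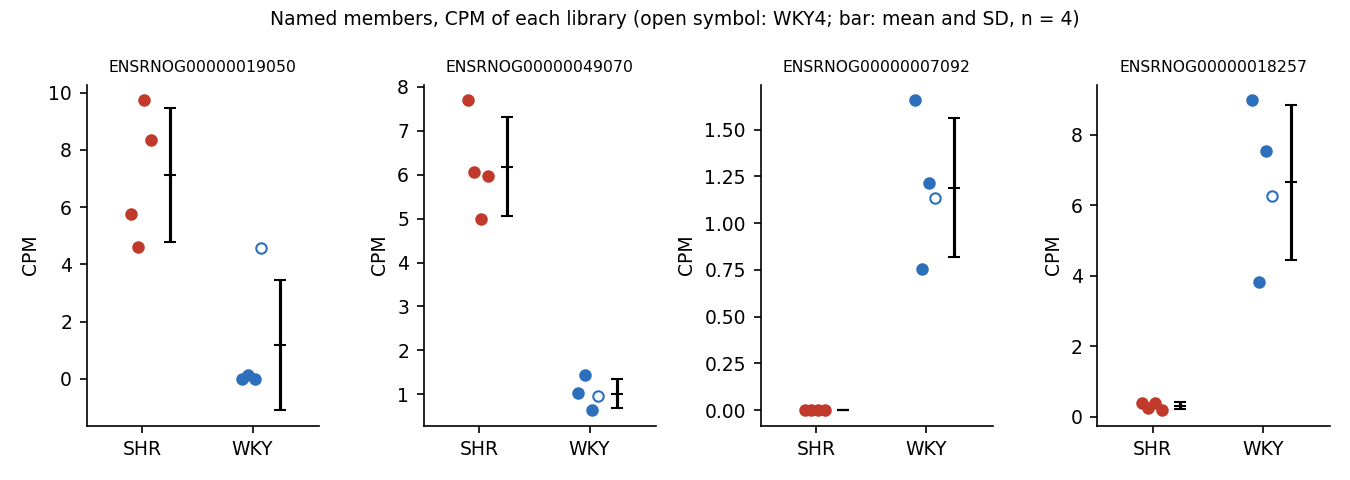
CPM of the 4 members given by ID, 1 panel each, with the 4 SHR libraries in red and the 4 WKY libraries in blue; black bars are the mean and SD of 4 libraries, and the open symbol is WKY4. WKY4 sits at 4.58 CPM for ENSRNOG00000019050, near SHR, and inside the WKY range for the other members shown.

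Such wide gaps were rare. Between the nearest libraries of the strains, the median ratio was 1.16 in the higher members and 1.29 in the lower members. It was under 1.1 in 28 members, 14 in each direction. A ratio of at least 1.5 was found in 3 higher and 16 lower members, and of at least 2 in 1 higher and 5 lower members. At most members the nearest libraries of the strains thus differed by much less than the strain means did.

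The edgeR quasi-likelihood test over all 8 libraries called 6 of the 137 members at an adjusted p under 0.05, 1 higher and 5 lower in SHR. Over all 16867 genes tested it called 6 (0.0356%), 1 higher (0.00593%) and 5 lower (0.0296%), and all 6 were members. The rule and the test used the same contrast, so nothing is read from this overlap or from the counts that follow. Without WKY4, edgeR called 59 members (15 higher, 44 lower) among 458 genes (2.69% of 17029 tested), which were 197 higher (1.16%) and 261 lower (1.53%). Those 59 were 43.1% of the members and 12.9% of the genes called. DESeq2 over 8 libraries called 72 of the 132 members for which it gave an adjusted p (16 higher, 56 lower), among 329 genes called (1.73% of 19031), 100 higher (0.525%) and 229 lower (1.20%).

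The 6 members called by edgeR included 3 of those given by ID, ENSRNOG00000049070, ENSRNOG00000007092 and ENSRNOG00000018257. The other 3 were all lower in SHR and had small spreads. One was at 0.511, 0.482, 0.504 and 0.438 CPM in SHR1 to SHR4 and at 2.58, 1.94, 2.001 and 1.45 CPM in WKY1 to WKY4. Another was at 7.64, 8.15, 6.11 and 6.38 CPM in SHR and at 13.3, 15.4, 15.5 and 13.5 CPM in WKY. In the last, SHR was at 3.64, 3.11, 3.41 and 2.50 CPM and WKY at 9.24, 11.7, 9.16 and 6.95 CPM. In the second of these WKY4 lay within the other WKY libraries, and in the other two it was the lowest of them. ENSRNOG00000019050, with the largest rise of the set, was not called over 8 libraries and was called without WKY4.

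**Figure D3:**
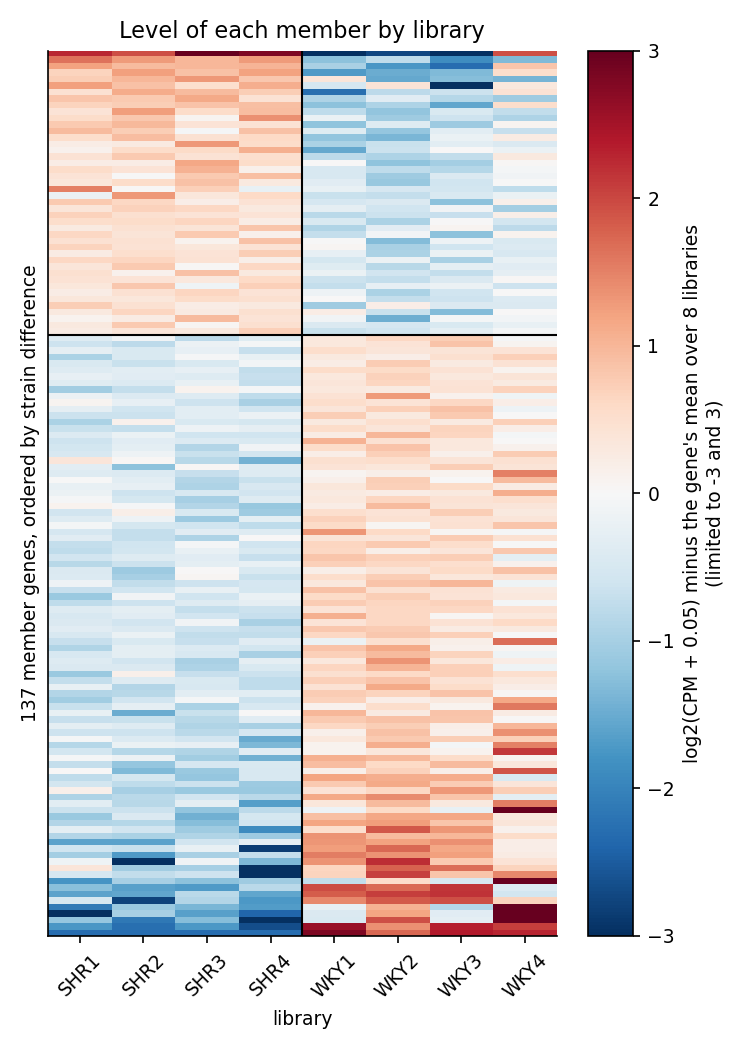
Each row is 1 of the 137 members, ordered by strain difference with the 44 higher in SHR above the horizontal line, and each column is a library; colour is log2(CPM + 0.05) minus the gene's mean over 8 libraries, limited to -3 and 3. SHR1 to SHR4 are of 1 colour and WKY1 to WKY4 of the other in most rows, and the WKY4 column is pale in many rows and darkest in a few rows near the bottom.

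The spread within a strain was wider in WKY than in SHR at 85 of the 137 members, and at 60 with WKY4 left out. Over the 15531 genes the same held at 7465, and at 5772 without WKY4. The median SD of log2(CPM + 0.05) over 4 libraries was 0.29 in SHR and 0.41 in WKY. Over WKY1 to WKY3 it was 0.28. Over the 15531 genes the corresponding medians were 0.19, 0.18 and 0.15. In the lower members the median SD fell from 0.40 over 4 WKY libraries to 0.23 over WKY1 to WKY3, against 0.31 in SHR. In the higher members it was 0.44 and 0.42 in WKY, against 0.27 in SHR. Without WKY4, the strain with the lower level had the larger median SD in each direction, but over 3 WKY libraries against 4 SHR libraries. Over 4 libraries each, WKY had the larger median SD in both directions. Over the 15531 genes SHR was also above WKY1 to WKY3 (0.19 against 0.15), as in the lower members. Nothing about level is therefore read from these medians. The cause was not tested.

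WKY4 was the WKY library nearest to SHR at 69 of the 137 members (50.4%), 20 of the 44 higher and 49 of the 93 lower. WKY1, WKY2 and WKY3 were nearest at 26, 16 and 26. Among all 1041 genes with separate ranges WKY4 was nearest at 45.9%. WKY2 was the WKY library farthest from SHR at 52 members, and at 434 of the 1041 genes. In SHR, the library nearest to WKY was SHR1 at 43 members, SHR3 at 39, SHR4 at 29 and SHR2 at 26. Over the 1041 genes these libraries were nearest at 319, 331, 188 and 203. Nothing particular to the members is read from these counts.

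Each library was also placed on a scale from 0 at the WKY mean to 1 at the SHR mean of log2(CPM + 0.05), with that library left out of its own strain's mean. Over the members, the median position was 0.905 to 1.03 in the 4 SHR libraries. It was 0.0135 in WKY1, -0.198 in WKY2, -0.00954 in WKY3 and 0.280 in WKY4. WKY4 lay past the midpoint, on the SHR side, at 41 members, against 12, 3 and 12 for WKY1, WKY2 and WKY3. By the rule it could not overlap SHR at any of them.

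**Figure D4:**
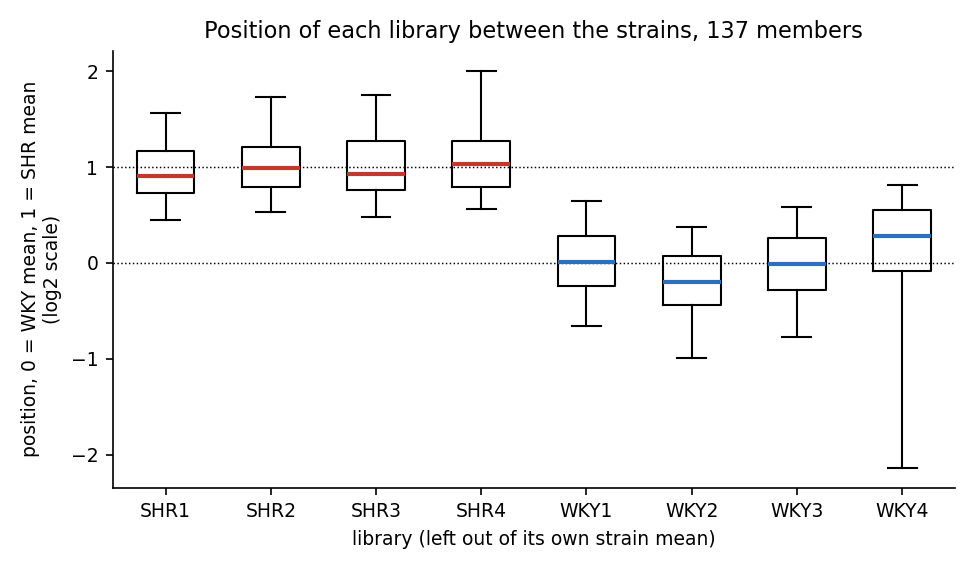
Position of each library between the strains over the 137 members, where 0 is the WKY mean and 1 the SHR mean on the log2 scale and the library shown is left out of its own mean; boxes give the quartiles, the coloured line the median and the whiskers the 5th and 95th percentiles. WKY4 has the highest WKY median (0.280) and by far the longest lower whisker.

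Any WKY library can take 3 kinds of place among the members, and these were counted for WKY4. At 69 it lay between SHR and WKY1 to WKY3, at 41 within the range of WKY1 to WKY3, and at 27 beyond them and away from SHR. Of these 27, 24 were lower in SHR. WKY1, WKY2 and WKY3 were the WKY libraries farthest from SHR at 28, 52 and 30 members, so 27 was not high for WKY4. Among all 1041 genes with separate ranges WKY4 was farthest at 171. The WKY mean therefore covers members at which WKY4 stood on different sides of WKY1 to WKY3.

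At some members of the first kind WKY4 lay close to SHR. Its position was above 0.75 at 7 of the 44 higher members, ENSRNOG00000019050 among them, and at 3 of the 93 lower members. One of the other higher members was at 18.6, 27.3, 21.4 and 27.2 CPM in SHR1 to SHR4. In WKY1 to WKY3 that gene was at 3.58, 4.14 and 4.64 CPM, while WKY4 was at 16.7 CPM. Its difference was 1.99 over 8 libraries and 2.49 without WKY4. Another higher member was at 7.41 to 8.86 CPM in SHR and at 1.98, 2.45 and 1.55 CPM in WKY1 to WKY3, with WKY4 at 6.78 CPM.

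Among the lower members, 1 gene was at 5.26, 6.20, 4.04 and 6.48 CPM in SHR and at 20.7, 19.1 and 19.7 CPM in WKY1 to WKY3. WKY4 was at 6.54 CPM, 1.01 times the highest SHR library. A second lower member was at 1.31, 1.36, 2.34 and 1.38 CPM in SHR, at 14.6, 17.6 and 18.7 CPM in WKY1 to WKY3 and at 2.81 CPM in WKY4. Its difference was -2.76 with WKY4 and -3.40 without it. In these genes WKY1 to WKY3 were tightly grouped and WKY4 stood near SHR.

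At 10 of the lower members the reverse held, and WKY4 was at least 2 times the next WKY library. The ratio ran from 2.10 to 86.9, and it was at least 10 in 4 genes. The highest was in a gene at 1.95, 8.33, 5.35 and 3.15 CPM in SHR and at 12.2, 37.7 and 13.1 CPM in WKY1 to WKY3, with WKY4 at 3276 CPM. The next 3 were at 203, 83.0 and 77.6 CPM in WKY4 and at no more than 4.93, 2.16 and 2.30 CPM in the other WKY libraries. A further gene was at 59.2 to 86.0 CPM in SHR, 114 to 201 CPM in WKY1 to WKY3 and 1108 CPM in WKY4.

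WKY2 was the next highest library in all 10 of these genes. It was the highest of WKY1 to WKY3 in 39 of the other 83 lower members. Without WKY4, 8 of the 10 kept a difference of at least 0.8, but the sizes fell. The gene at 3276 CPM went from -4.02 to -2.14, and the genes at 203, 83.0 and 77.6 CPM went from -3.15 to -1.55, from -2.53 to -1.03 and from -4.10 to -2.45. None of the 10 was among the 6 members that edgeR called over 8 libraries. Whether these genes mark a cell type or a neighbouring tissue was not tested, since their symbols were not available.

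**Figure D5:**
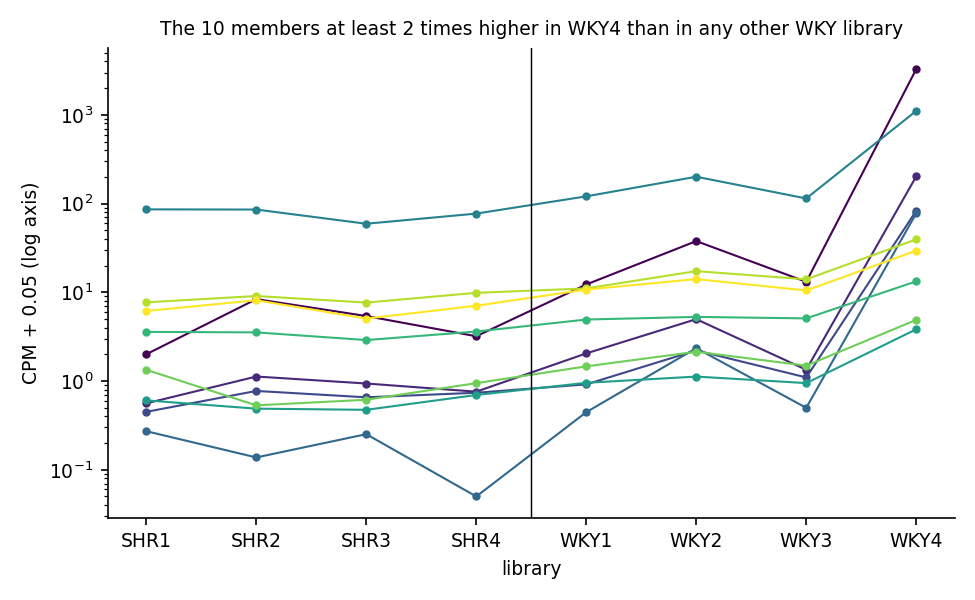
CPM plus 0.05, on a log axis, of the 10 lower members at which WKY4 was at least 2 times the next WKY library; each line joins the 8 libraries of 1 gene and has no meaning as an order. All 10 lines are highest at WKY4, and within WKY1 to WKY3 all 10 are highest at WKY2.

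Of these 10 genes, those at 3276 and 1108 CPM in WKY4 held most of the summed level of the lower members there. The 10 were chosen for their level in WKY4, so a lower WKY4 sum without them follows from that choice. The 93 lower members together held 838 to 1056 CPM in SHR, 1655 to 2203 CPM in WKY1 to WKY3 and 6521 CPM in WKY4. Without the 10 genes above, the sum was 755 to 939 CPM in SHR and 1490 to 1915 CPM in WKY, with WKY4 at 1684 CPM. The 44 higher members held 999 to 1194 CPM in SHR and 489 to 557 CPM in WKY1 to WKY3, with WKY4 at 770.5 CPM. In the sum over 83 lower members, 1 gene, the lower member with the highest mean CPM, held most of the level. Without it the sum was 294 to 325 CPM in SHR and 686 to 772 CPM in WKY1 to WKY3, with WKY4 at 508 CPM. WKY4 then lay between the SHR sums and those of WKY1 to WKY3. The gene left out last was also highest in WKY4, at 1176 CPM. The place of WKY4 in these sums thus depends on which genes are left out, and nothing is read from it.

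The member with the highest mean CPM in each direction differed by less than 2-fold over 8 libraries (CPM is not divided by gene length). A higher member with a mean of 586 CPM was at 745, 734, 695 and 844 CPM in SHR1 to SHR4 and at 353, 337, 414 and 569.6 CPM in WKY1 to WKY4. Its difference was 0.88 over 8 libraries and 1.04 without WKY4. A lower member with a mean of 743 CPM was at 500.1, 628, 440 and 479 CPM in SHR and at 803, 1143, 778 and 1176 CPM in WKY. Its difference was -0.92, and -0.82 without WKY4. These 2 genes made up most of the summed CPM of their direction in SHR.

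Over the whole set, most members kept their difference when WKY4 was left out. The members were chosen on all 8 libraries, so their ranges stay separate without WKY4 by the rule. The counts that follow are therefore a description and not a check of the set. Of the 137 members, 131 kept a difference of at least 0.8, all 44 higher members and 87 of the 93 lower ones. The median difference went from 1.03 to 1.19 in the higher members and from -1.08 to -1.10 in the lower members. With strain medians in place of means, an alternative chosen after the data were seen, 122 members kept a difference of at least 0.8, 40 higher and 82 lower in SHR.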

How the data were processed

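Counts for each gene were deposited by the authors, both in 1 matrix of 8 libraries and in 8 single-library tables. All 8 tables matched the matrix, although 4 headers carried another number than the sample title, and the titles were used. The tools named, per the submitters' processing notes, are StringTie 1.3.4d, HISAT2 2.0.4 and cutadapt 1.9, with build rn6. The annotation and strand setting were not given in the sources used here. In every library more genes had 4 counts than 3, so low counts may not be tallies of single fragments.

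The RefSeq table used here (assembly GRCr8) held 0 Ensembl IDs, so no symbol, position or sequence was assigned and none of the 37 gene lists was matched. Whether near-identical copies share reads could not be checked. The members, lists and tests were chosen with earlier results of these data known. The rule for named genes took the 10 largest differences and 5 highest means per direction, genes called by edgeR, and the genes next to the threshold, with at most 2 IDs per direction where symbols were lacking.

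CPM was computed from library totals (pandas 2.3.3). edgeR 4.0.16 in R 4.3.3 tested strain on all genes (TMM, filterByExpr, quasi-likelihood F test, two-sided, Benjamini-Hochberg) and was tested on simulated data. DESeq2 1.42.0 was an alternative. As libraries are not stated to be separate animals, p-values measure the spread between libraries, which may be technical. No pair of libraries of a strain was a duplicate (lowest chi-square per degree of freedom 15.5).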

Additional observations from a re-analysis of the deposited data

Results flagged for a closer look

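For each strain, 12 measures of its 4 libraries (24 sets in all) were screened for a library far from the other 3, and 3 sets had one. By chance about 1 set in 20 would. The sets share libraries and genes and are not independent. ENSRNOG00000019050 was at 4.58 CPM in WKY4, far above WKY1 to WKY3. The summed level of the 93 lower members was 6521 CPM in WKY4, far above the other WKY libraries. This was not so for the 83 lower members other than those at least 2 times higher in WKY4. As the genes left out were chosen for their level in WKY4, nothing is read from that. The median CPM of the 44 higher members was 2.48 in SHR3, above 1.93 to 2.01 in the other SHR libraries. Member by member, the same screen picked out a WKY library at 21 of 137 members, WKY4 in 16 of them, and an SHR library at 6. The share over all genes was not computed, so nothing about the members is read from these counts.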

How the results depend on the processing

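The number of members moved with the cutoffs and with each library left out, most of all WKY4. Scaling by TMM or by DESeq2 size factors gave 137 and 136 genes, with 128 and 127 of the 137 members among them. A pseudocount of 0.5 gave 82 genes (23 higher, 59 lower in SHR), a minimum difference of 1 gave 81 (24 and 57), and no minimum mean CPM gave 253 (109 and 144). A minimum mean of 1 CPM gave 104. Leaving out 1 library gave 158 to 433 genes, 54 to 184 higher and 103 to 249 lower, in part because ranges of 7 libraries are more easily separate than those of 8. The highest number was without WKY4; without SHR1 and SHR3 it was 209 and 229.

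The 6 genes called by edgeR, all members, became 3 with no low-count filter (all members). DESeq2 called 329 genes, 72 of them members. Leaving out 1 library gave 1 to 458 genes, 1 to 59 of them members. Only WKY4 raised the number: it was 458 without WKY4, 6 without SHR3, 2 without SHR2, WKY2 or WKY3 and 1 without SHR1, SHR4 or WKY1. With the replicate number as a block, 1 gene was called, a member. The numbers were not treated as pairs, because libraries with the same number did not deviate together (correlations from -0.156 to -0.00345 over genes, none over 0.1), and no SHR library correlated best with its own number. ENSRNOG00000018257 was called in all 12 alternatives, ENSRNOG00000049070 in 7 and ENSRNOG00000007092 in 5. ENSRNOG00000019050 was called in 1, without WKY4. No named gene changed direction. The causes were not tested. Low counts limit the precision of the 33 members with a mean under 1 CPM.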
